A study of Mus musculus with 2 samples.

Results

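Long footprints are intervals of 20 bp or more in the deposited lists of DNase I footprints. They were chosen by length alone, as the interval's end minus its start, and there were 36243 of them among 345763 footprints in all. Replicate 1 held 25620 long footprints of 227153 and replicate 2 held 10623 of 118610. They were compared with footprints of 7 to 12 bp, called short below, of which replicate 1 held 166047 and replicate 2 held 90943. The study applied DNase-seq, the sequencing of DNA ends left by the nuclease DNase I in nuclei, to mouse hippocampus. Both libraries came from female B6CASTF1/J mice, an F1 hybrid strain, at an age of 2 months. One label calls the tissue a layer of the hippocampus and another calls it hippocampus. No treatment or mutant allele is labelled, and the 2 libraries form 1 group as biological replicates 1 and 2. They carry 1 donor record and separate biosample records, so the spread between them may be technical. The tissue holds many cell types, and a footprint here is read from all of them together.

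DNase I cuts DNA that is free of nucleosomes, and a protein bound within such an accessible site shields the bases under it. A footprint is a short run of bases cut less often than the surrounding accessible DNA. Its length depends in part on how much DNA is shielded by one protein or by neighbouring proteins. CTCF, a protein with many zinc fingers that sits at chromatin loop anchors and insulators, covers an unusually long stretch. NRF1, SP proteins and the CRE-binding proteins CREB and ATF are known mostly from promoters, where several factors bind side by side. AP-1 (FOS and JUN dimers) and NEUROD factors bind short elements, often in enhancers, and in neurons AP-1 is induced by activity.

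The sequences below show what long footprints held, each as the joined interval of a footprint that was long in both libraries. Capitals mark the consensus named, and letters outside it are in lower case. Sequences are from RefSeq, build GRCm38.p6, and coordinates are on mm10 (GRCm38). The first set holds the CTCF consensus, the commonest of those searched. Cbl encodes a ubiquitin ligase and Chd2 a chromatin remodeller. The Cbl interval also holds the TEAD element on its other strand, left in lower case.
CTCF, chr9:44234236-44234280, minus strand, 209 bp upstream of a Cbl start site: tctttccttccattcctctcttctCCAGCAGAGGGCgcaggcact
CTCF, chr7:73618506-73618547, minus strand, intergenic, 76780 bp upstream of the nearest coding start site, of Chd2: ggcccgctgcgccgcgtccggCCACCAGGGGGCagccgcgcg

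The next set holds other consensuses, in examples upstream of coding start sites. NFI and RFX footprints were mostly elsewhere in replicate 1, with 17.3% and 27.5% of those holding them inside at promoters. In replicate 2 these shares were 30.8% of 65 for NFI and 50% of only 14 for RFX. Eif5a encodes a translation factor, Ubr4 a ubiquitin ligase, Mxd1 a repressor of the MYC network, Dnpep an aminopeptidase, Gstm7 a glutathione transferase and Syt5 a synaptotagmin of secretory vesicles.
NRF1, chr11:69921375-69921404, minus strand, 5 bp upstream of an Eif5a start site: tccatGCGCTTGCGcagtgcgggggtggaa
NRF1, chr4:139380442-139380465, minus strand, 206 bp upstream of a Ubr4 start site: ccctctGCGCGTGCGccatggcgg
CRE, chr6:86669508-86669533, plus strand, 359 bp upstream of a Mxd1 start site: cggctacgaTGACGTCAcctctctgc
CRE, chr7:73537874-73537906, plus strand, 269 bp upstream of a Chd2 start site: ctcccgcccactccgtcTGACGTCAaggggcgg
SP, chr1:75317744-75317769, minus strand, 97 bp upstream of a Dnpep start site: gaacagtGGGGCGGGGcgcggtgtga
NFI, chr3:107931855-107931882, plus strand, 51 bp upstream of a Gstm7 start site: gtggcTTGGCTGAGTGCCAAgagcgaaa
RFX, chr7:4546691-4546729, plus strand, 143 bp upstream of a Syt5 start site: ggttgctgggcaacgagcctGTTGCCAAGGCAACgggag

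The last set shows very long footprints and footprints at activity-regulated genes. Scap encodes the escort protein of the sterol-regulated factors SREBP, Flad1 FAD synthase, Arc an activity-induced synaptic protein and Jun a subunit of AP-1. The Scap interval also holds NRF1, left in lower case, and the others hold no exact match to the 26 consensuses searched.
CTCF, chr9:110333249-110333307, plus strand, 11 bp upstream of a Scap start site: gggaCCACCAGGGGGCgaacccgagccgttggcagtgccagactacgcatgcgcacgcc
Flad1, chr3:89411889-89411946, plus strand, 47 bp upstream of a start site: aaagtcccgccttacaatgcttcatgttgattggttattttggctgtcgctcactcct
Arc, chr15:74672586-74672618, plus strand, 32 bp upstream of a start site: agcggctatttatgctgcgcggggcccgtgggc
Jun, chr4:95052252-95052275, plus strand, 41 bp upstream of a start site: atagcccatgatgtcaccccgagg

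Long footprints were a small share of the intervals but a larger share of the bases. They were 11.3% of the footprints of replicate 1 (95% Wilson interval 11.1 to 11.4) and 8.96% of those of replicate 2 (8.80 to 9.12), or 10.1% ± 1.64 (SD, n = 2). Of all footprint bases they held 26% in replicate 1 and 21.5% in replicate 2. Their median length was 25 bp in both libraries, with quartiles of 22 and 29 bp, and the longest measured 79 bp in replicate 1 and 65 bp in replicate 2. Intervals given here and below cover counting error only, and they are too narrow where footprints share an accessible site.

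**Figure D1:**
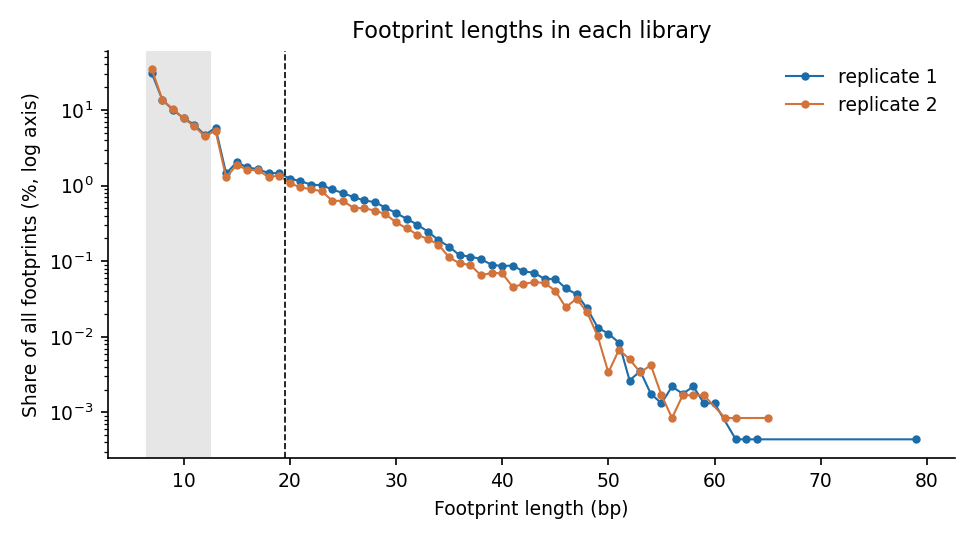
Share of all footprints at each length (x axis, bp; y axis, percent on a log scale) in replicate 1 (blue) and replicate 2 (orange). The dashed line marks the lower limit of 20 bp, grey marks 7 to 12 bp, and both curves fall through the limit without a step.

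The length distribution had no step at the limit of 20 bp. It had one at shorter lengths, from 13235 footprints at 13 bp to 3285 at 14 bp in replicate 1 and from 6329 to 1518 in replicate 2. In replicate 1 the promoter share was 28.0% at 13 bp and 42.1% at 14 bp, and recurrence by 1 bp 27.8% and 44.8%, all within the class of 13 to 19 bp used below as a further comparison. At 19 bp replicate 1 had 3322 footprints and replicate 2 had 1611, against 2803 and 1269 at 20 bp. On either side of the limit the promoter share in replicate 1 was 41.3% at both 19 and 20 bp, and the share with the CTCF consensus was 3.73% at 19 bp and 5.89% at 20 bp. In replicate 2 the CTCF share was 6.89% at 19 bp and 9.14% at 20 bp. Length is what chose these footprints, so these values are a description.

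Long footprints lay close to transcription start sites (TSS) more often than short ones, mainly on the upstream side. Within 1 kb of a coding gene's TSS, called a promoter here, were 38.7% of long and 25.9% of short footprints in replicate 1. In replicate 2 the promoter shares were 47.3% and 41.2%. The difference was 12.8 percentage points in replicate 1 (95% Newcombe interval 12.2 to 13.4) and 6.06 in replicate 2 (5.05 to 7.06), or 9.43 ± 4.77 (SD, n = 2). Against footprints of 13 to 19 bp it was 3.46 in replicate 1 and -1.84 in replicate 2. In replicate 1, 13235 of those 35486 footprints were 13 bp long, with a promoter share of 28.0%. Each length from 14 to 19 bp had a share of 35.3% to 42.1% there, so the positive value leans on the 13 bp footprints. In the 100 bp upstream of the TSS lay 17.7% of long and 7.60% of short footprints in replicate 1, and 23.4% and 12.7% in replicate 2. Downstream, within 1 kb, the order was the other way round, with 9.23% of long and 10.6% of short footprints in replicate 1 and 10.7% and 17.7% in replicate 2. Introns outside promoters held 28.3% of long and 37.4% of short footprints in replicate 1, and 22% and 28.1% in replicate 2. More than 100 kb from any coding TSS lay 10.7% of long and 20.2% of short footprints in replicate 1, and 7.27% and 13.8% in replicate 2.

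**Figure D2:**
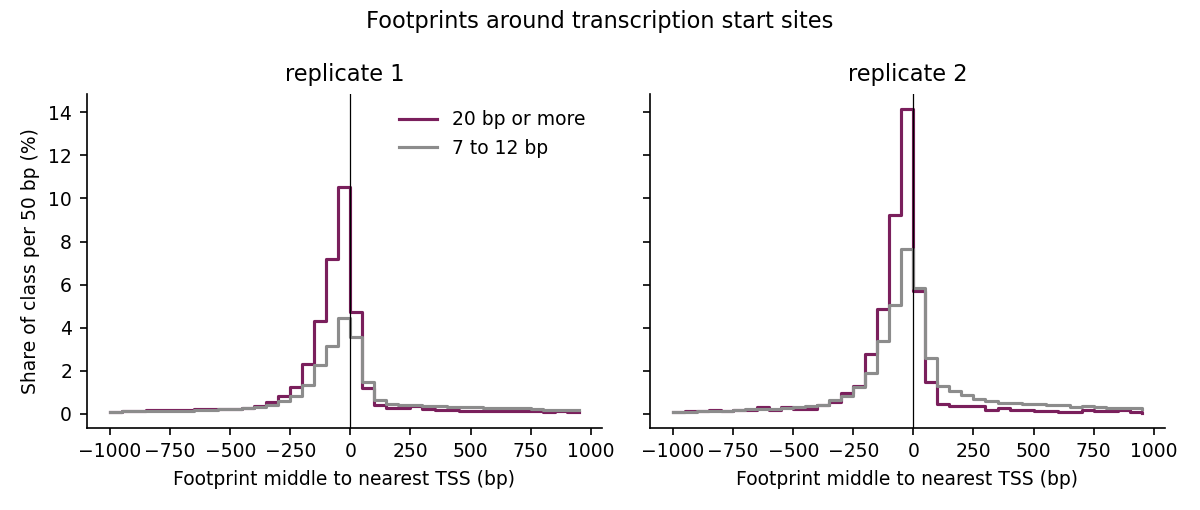
Distance from each footprint's middle to the nearest coding TSS (x axis, bp, negative upstream) against the share of the class per 50 bp (y axis, percent), for footprints of 20 bp or more (purple) and of 7 to 12 bp (grey). Long footprints peak in the 50 bp before the TSS in both libraries, and short footprints extend further downstream.

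The accessible sites that held long footprints were strong ones. The median value of the host peak, a signal the authors scaled to each library, was 2.15 for long and 0.982 for short footprints in replicate 1, and 2.55 and 1.26 in replicate 2. In replicate 1, 21141 peaks held a long footprint, which was 16.3% of the longer peak list, and in replicate 2 it was 9162 peaks or 12.7%. Peaks with 2 or more long footprints numbered 2940 in replicate 1 and 957 in replicate 2, and the most in 1 peak was 6 and 5. The rule used each library's own footprints, so the peaks of the other library are a separate reading. There the median peak value was 2.01 at long and 1.25 at short footprints of replicate 1, over those inside a peak of the other library, and 2.85 and 1.58 for replicate 2. Of all long footprints, 77.4% lay within 50 bp of their peak's middle in replicate 1 and 76.8% in replicate 2, against 56.8% and 53.1% of short ones. Footprints in no peak count as not central in these shares. In a peak of the longer list lay 96.6% of long footprints in each library, against 92.3% and 91.0% of short ones. Over footprints in a peak, the median distance from the peak's middle was 16.5 bp for long and 38 bp for short ones in replicate 1. In replicate 2 it was 17.5 and 40.5 bp. The base at the middle had an FDR under 0.001 in the other library's base list for 76.1% of long and 37.8% of short footprints of replicate 1, and for 98.1% and 79.5% in replicate 2. Another footprint lay within 20 bp of 31.9% of long footprints in replicate 1 and 31.6% in replicate 2, against 40.4% and 38.2% of short ones.

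Among peaks of similar value the promoter difference turned round. In host peaks with a value of 2 to 4, promoters held 35.5% of long and 48.1% of short footprints in replicate 1, and 48.2% and 71.2% in replicate 2. Long footprints were also the less promoter-bound class in peaks with a value under 1, of 1 to 2, and of 4 or more, by between 1.81 and 20.7 percentage points. In the strongest peaks, with a value of 4 or more, promoters held 86.8% of long and 88.6% of short footprints in replicate 1. The 100 bp upstream of the TSS held 41.5% of long and 34.9% of short footprints there in replicate 1, and 44.2% and 35.2% in replicate 2. In the other 3 bands of peak value long footprints were not more frequent in those 100 bp, with long minus short from -4.38 to -0.0627 percentage points. Without footprints that hold CTCF, 1 letter off allowed, promoters held 51.1% of long and 26.4% of short footprints in replicate 1, and 65.9% and 42.7% in replicate 2. Within peaks with a value of 2 to 4 the shares without CTCF were 44.4% and 48.3% in replicate 1, and 63.9% and 71.7% in replicate 2.

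Long footprints were GC-rich, and few lay in repeats. The 41 bp around their middles held 60.1% G or C in replicate 1 and 63.1% in replicate 2, against 53.8% and 59.0% for short footprints. In host peaks with a value of 2 to 4 that difference was 1.78 percentage points in replicate 1 and -0.26 in replicate 2. The middle base was soft-masked as a repeat in 7.21% of long footprints of replicate 1 and 5.63% of replicate 2, against 8.30% and 6.52% of short ones. At 98.6% of long footprints in replicate 1 and 98.3% in replicate 2 the 31 bp around the middle occurred once in the genome, slightly less often than the 98.8% and 98.5% of short footprints. The X chromosome held 1.59% of long footprints in replicate 1 and 1.58% in replicate 2, against 2.12% and 2.22% of short footprints.

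Long footprints were found again in the other library far more often than short ones. At least 1 bp of a footprint of replicate 2 overlapped 76.6% of the long and 14.9% of the short footprints of replicate 1. In the other direction replicate 1 overlapped 97.6% of the long and 41.5% of the short footprints of replicate 2. Footprints of 13 to 19 bp lay between, at 40.5% in replicate 1 and 79.1% in replicate 2, and the mean difference of 58.9 percentage points between long and short was 27.3 between long and these. A longer interval overlaps more by its length alone, and with the footprints moved by 100 bp the shares were 15.5% for long and 5.32% for short ones in replicate 1, and 27.4% and 11.2% in replicate 2. Middles within 5 bp of each other, a measure that does not favour length, were found for 57.9% of long and 11.8% of short footprints in replicate 1, and for 80.1% and 29.7% in replicate 2. The difference in this measure was 46.1 percentage points in replicate 1 (95% Newcombe interval 45.5 to 46.7) and 50.4 in replicate 2 (49.6 to 51.2). Replicate 2 listed fewer footprints, which lowers what replicate 1 can find there.

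**Figure D3:**
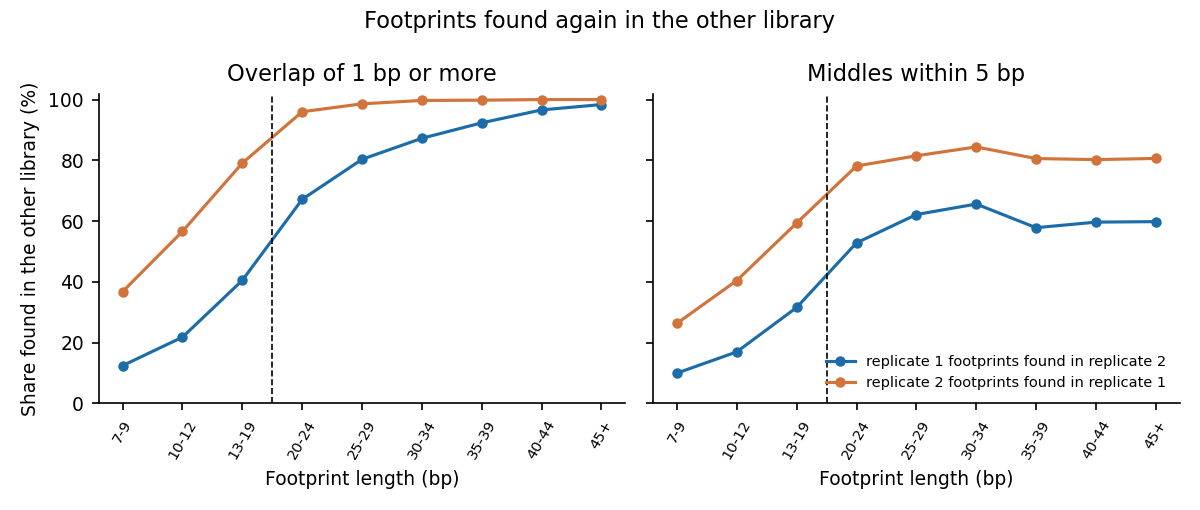
Share of footprints found in the other library (y axis, percent) by footprint length (x axis, bp), by an overlap of 1 bp or more (left) and by middles within 5 bp (right). Blue shows footprints of replicate 1 and orange those of replicate 2, and beyond the dashed line at 20 bp replicate 2 stays between 78.1% and 84.4% in the right-hand panel.

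The gap stayed when the host peaks were alike. Within peaks with a value of 2 to 4, middles within 5 bp were found for 66.7% of long and 22.8% of short footprints of replicate 1, and for 81.3% and 40.3% in replicate 2. In the weakest peaks, with a value under 1, the shares were 22.1% and 5.03% in replicate 1, and 58.3% and 20.6% in replicate 2. Where both libraries had a peak, 65.9% of long and 21.7% of short footprints of replicate 1 recurred by this measure, and 80.6% and 34.7% of those of replicate 2. From 20 to 24 bp up to 45 bp and more, recurrence by 1 bp went from 67.2% to 98.4% in replicate 1, while the share with middles within 5 bp went from 52.9% to 59.8% with its highest value, 65.6%, at 30 to 34 bp.

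Many long footprints of replicate 1 were shorter in replicate 2. Of the 25620, 33.4% overlapped a long footprint of replicate 2, 43.2% overlapped only shorter ones, and 23.4% overlapped none. More than 1 footprint of replicate 2 lay under 15.9% of them. Of the long footprints of replicate 2, 80.5% overlapped a long one of replicate 1, 17.1% only shorter ones and 2.40% none. The 5997 long footprints of replicate 1 with no partner lay in weaker peaks, with a median value of 1.20 against 2.98 for those with a long partner, and 53.2% of them had no peak of replicate 2 at their middle.

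Long footprints that recurred as long ones often had matching edges. There were 7249 pairs with middles within 5 bp and 20 bp or more in both libraries, which was 28.3% of the long footprints of replicate 1 and 68.2% of those of replicate 2. Both edges lay within 2 bp in 3039 pairs (41.9%, 95% Wilson interval 40.8 to 43.1), and 488 pairs (6.73%) had the same start and end. In these pairs the median length was 28 bp for the member from replicate 1 and 25 bp for its partner. Promoters held 45.3% of them, and 18% contained the CTCF consensus.

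Of the 26 consensuses searched, CTCF differed most between long and short footprints. It lay in the 41 bp around the middle of 12.3% of long and 0.735% of short footprints in replicate 1, and of 14.9% and 1.47% in replicate 2. The difference was 11.5 percentage points in replicate 1 (95% Newcombe interval 11.1 to 11.9) and 13.4 in replicate 2, or 12.5 ± 1.31 (SD, n = 2). In windows moved by 100 bp from the same long footprints the share was 0.0878% in replicate 1 and 0.0706% in replicate 2. Footprints of 13 to 19 bp lay between, with 2.70% and 5.25%. Outside promoters 18.8% of long footprints of replicate 1 and 26.3% of those of replicate 2 held the consensus, against 0.940% and 2.34% of short ones. With 1 letter off allowed, the shares outside promoters were 43.3% and 57.2% for long footprints and 3.45% and 6.88% for short ones. At promoters the exact consensus was in 1.82% and 2.13% of long footprints.

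**Figure D4:**
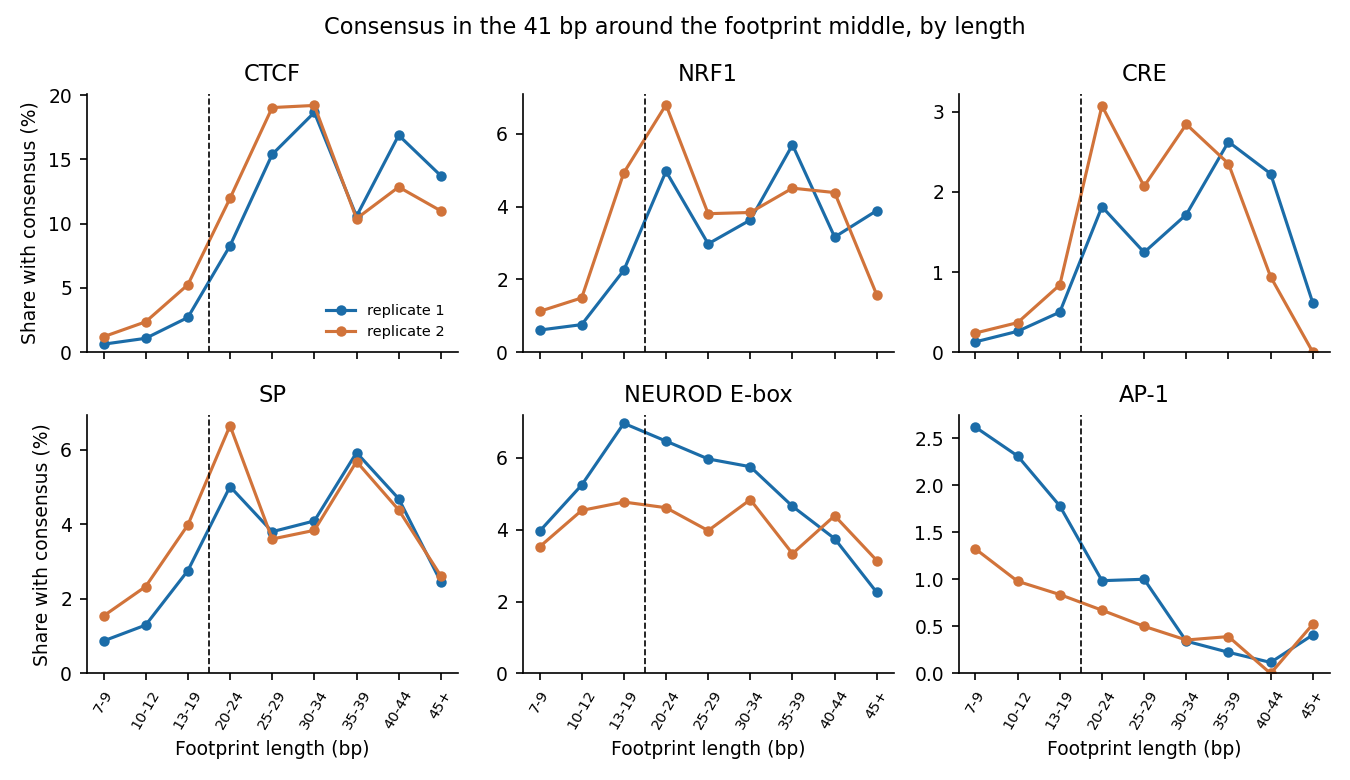
Share of footprints with each of 6 consensuses in the 41 bp around the middle (y axes, percent, different scales) by footprint length (x axis, bp), in replicate 1 (blue) and replicate 2 (orange). The CTCF share is highest at 30 to 34 bp, at 18.7% and 19.2%, while the AP-1 share is highest in the shortest footprints.

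Read from the consensus, most footprinted CTCF sites were long footprints. Replicate 1 had 5660 CTCF consensuses inside peaks, of which 55.1% lay in a long footprint, 7.90% in a short one and 22.6% in none. In replicate 2, 39.2% of 3990 lay in a long footprint, 12.1% in a short one and 29.9% in none. The footprint began close to a fixed place, with its upstream edge 4 to 6 bp before the consensus at 63.3% of the sites in replicate 1 and 61.9% in replicate 2. Downstream edges were more spread out, with quartiles of 7 and 12 bp beyond the consensus in replicate 1 and 6 and 12 bp in replicate 2. The pair at Chd2 shows the same edges in both libraries, at 42 bp each, while the pair at Cbl measured 45 bp in replicate 1 and 41 bp in replicate 2. Neither pair is typical at its upstream edge. In replicate 1 these edges lay 21 bp (Chd2) and 24 bp (Cbl) before the consensus, distances found at 1.76% and 0.577% of the sites. Long footprints with CTCF inside lay in peaks with a median value of 1.51 in replicate 1 and 1.69 in replicate 2. Those medians were under the 2.15 and 2.55 of all long footprints but above the 0.982 and 1.26 of short ones. The long footprints with CTCF inside recurred as long ones in 43.1% of 3027 in replicate 1 and 84.9% of 1492 in replicate 2.

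**Figure D5:**
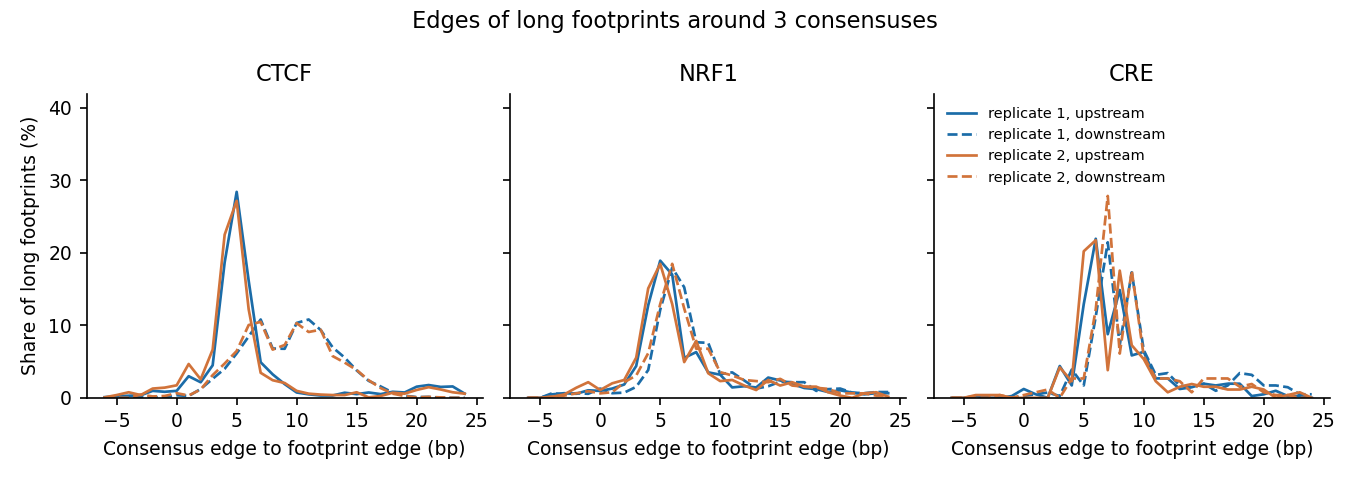
Distance from the consensus edge to the footprint edge (x axis, bp, positive when the footprint extends beyond the consensus) against the share of long footprints at that consensus (y axis, percent), for upstream (solid) and downstream (dashed) edges in replicate 1 (blue) and replicate 2 (orange). Upstream edges at CTCF gather at 4 to 6 bp, and downstream edges spread more widely.

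NRF1, SP and CRE consensuses were the promoter elements most often found in long footprints. NRF1 (GCGCNTGCG, either strand) was near 4.17% of long and 0.644% of short footprints in replicate 1, and 5.29% and 1.21% in replicate 2. SP (GGGGCGGGG) was near 4.53% and 0.982% in replicate 1, and 5.23% and 1.73% in replicate 2. CRE (TGACGTCA) was near 1.67% and 0.162% in replicate 1, and 2.61% and 0.269% in replicate 2. Among promoter footprints alone NRF1 was near 9.83% of long and 1.95% of short ones in replicate 1 and CRE near 3.59% and 0.277%. Promoters held 91.8% of the long footprints with NRF1 inside in replicate 1, 90.6% of those with SP and 84.1% of those with CRE. Their host peaks were strong, with medians of 5.66, 5.88 and 4.97.

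Of the CRE consensuses in peaks, 42.5% of 964 lay in a long footprint in replicate 1 and 35.1% of 746 in replicate 2. For NRF1 the shares were 33.4% of 3752 and 18% of 3607. SP consensuses were in long footprints less often, at 20.6% of 5571 and 10.4% of 5085. The NRF1 footprint at Eif5a measured 26 bp in replicate 1 and 23 bp in replicate 2, and the one at Ubr4 24 and 20 bp. The CRE footprint at Mxd1 measured 26 and 22 bp, and the one at Chd2 33 and 25 bp.

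Other consensuses went the same way at low shares. NFI was near 0.703% of long and 0.160% of short footprints in replicate 1, and 0.659% and 0.202% in replicate 2. RFX was near 0.437% and 0.0849% in replicate 1, and 0.160% and 0.0847% in replicate 2, where only 17 long footprints held it. ETS (CCGGAAGT) was near 0.824% and 0.326% in replicate 1, and 1.03% and 0.589% in replicate 2. At promoters ZNF143 was near 1.08% of long and 0.228% of short footprints in replicate 1, and 0.776% and 0.315% in replicate 2. EGR (GCGTGGGCG), NFY (AGCCAAT) and the CGCG element (TCTCGCGAG) were also higher at long footprints in both libraries.

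AP-1 and several A/T-rich elements went the other way. AP-1 (TGANTCA) was near 0.824% of long and 2.54% of short footprints in replicate 1, and 0.546% and 1.24% in replicate 2. Outside promoters the AP-1 shares were 1.17% and 3.21% in replicate 1, and 0.822% and 1.83% in replicate 2. Of the 15364 AP-1 consensuses in peaks of replicate 1, 0.716% lay in a long footprint, 6.29% in a short one and 91.1% in none. MEF2, bound by a factor family of neurons and muscle, was near 0.133% and 0.442% in replicate 1. Of 3323 MEF2 consensuses in peaks there, 0.542% lay in a long footprint, 4.63% in a short one and 93.7% in none. The TATA box (searched as TATAAA), the SOX element (searched as ACAATGG), the FOX element (searched as TGTTTAC) and the homeobox element (searched as TAATTA) were also lower at long footprints in both libraries. So were the TEAD element (searched as GGAATG) and the C/EBP element (searched as TTGCNNAA).

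Over all 26 consensuses searched, 12 were higher at long footprints in both libraries with intervals clear of 0, 8 were lower and 6 were neither. Among promoter footprints 11 were higher and 0 lower, and among distal ones 8 were higher and 8 lower. Without footprints that hold CTCF, 1 letter off allowed, 10 were higher and 6 lower. The 6 that were neither were REST, GR, YY1 (AAGATGGCG), KLF (CCCCACCC), the CACGTG E-box and the nuclear receptor element AGGTCA. REST, GR, MEF2, CTCF, RFX, NFI and ZNF143 were searched with longer consensuses known by name. No long footprint held the REST consensus in its 41 bp in either library, against 9 short ones in replicate 1 and 12 in replicate 2. Of the REST consensuses inside peaks, 0 of 54 in replicate 1 lay in a long footprint and 0 of 38 in replicate 2. Few lay in a footprint of any length, 5 in replicate 1 and 1 in replicate 2, while 49 and 37 lay in none. A count of 0 allows, at 3 counts of the total, a share of up to 5.56% and 7.89%, and the 95% Wilson upper limits were 6.64% and 9.18%.

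The NEUROD E-box overlaps CTCF in its letters, and its share has to be read with that in view. CAGATGG was near 5.96% of long and 4.29% of short footprints in replicate 1, and 4.37% and 3.76% in replicate 2. The letters CAGATGG fit inside the CTCF consensus, and CTCF and the E-box stood together inside 242 long footprints of replicate 1 and 127 of replicate 2. Without footprints that hold CTCF, 1 letter off allowed, the E-box was near 5.93% of long and 4.12% of short footprints in replicate 1 and 3.70% and 3.54% in replicate 2. The difference without CTCF was 1.81 percentage points in replicate 1 (95% Newcombe interval 1.47 to 2.18) and 0.158 in replicate 2 (-0.277 to 0.640). In replicate 1 the E-box share was highest at 13 to 19 bp, at 6.96%. YY1, whose letters also overlap CTCF with 1 letter off, was higher at long footprints outside promoters in both libraries, and over all footprints without CTCF the difference was 0.0778 percentage points in replicate 1 (95% Newcombe interval 0.00932 to 0.166) and 0.0120 in replicate 2 (-0.0980 to 0.173).

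Words of 8 letters, on either strand, were chosen by their ratio in replicate 1 and then read in replicate 2, whose long footprints mostly lie at the same sites. The word CAGGGGGC, part of the CTCF consensus, was near 7.48% of long and 0.899% of short footprints of replicate 2, and AGGTGGCG near 4.79% and 0.603%. Leaving out footprints with CTCF when the words were ranked, the highest was TGACGTCA, the CRE itself, at 2.61% and 0.269% over all long and short footprints of replicate 2. GACGTCAC followed with 2.43% and 0.267%, and CGCATGCG, which lies in NRF1 sites, had 1.81% and 0.344%. At the low end stood CTGAGTCA, an AP-1 site, near 0.160% of long and 0.342% of short footprints of replicate 2, and AAAAAAAA near 0.141% and 0.320%.

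Most long footprints held no exact match to any of the 26 consensuses. Inside the interval 67.8% had none in replicate 1 and 66.0% in replicate 2. There 30.3% and 31.8% had 1, and 1.91% and 2.19% had 2 or more. Exact letters were required, so a near match counts as none. In the 41 bp window CTCF alone was at 29.0% and 33.9% of long footprints with 1 letter off allowed, against 12.3% and 14.9% exact. Long footprints with none recurred as long ones in 25.4% of 17365 in replicate 1 and 64.0% of 7015 in replicate 2, below the shares for CTCF. In replicate 1 the shares for NRF1, CRE, SP, NFI, ETS, ZNF143 and the CGCG element were also higher. Those for the NEUROD E-box (18.8%), AP-1 (13.2%) and RFX (11.8%) were lower. The order differed in part in replicate 2. There the NEUROD E-box stood at 64.5% and RFX at 85.7% of only 14, neither of them lower. AP-1 was lower, at 50% of 16, and the CGCG element stood at 63.3% of 30. The median peak values of long footprints with none were 2.12 in replicate 1 and 2.57 in replicate 2, close to those of all long footprints. Among the longest, the 58 bp interval at Flad1 measured 57 bp in each library and held none. The 59 bp interval at Scap held both CTCF and NRF1 and measured 58 bp in both libraries.

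Promoters with a long footprint were common, so gene lists are read against all promoters. Of 12882 protein-coding genes with a promoter peak in both libraries, 54.4% had a long footprint within 1 kb of a TSS in replicate 1, 34.3% in replicate 2 and 24.3% one that was long in both. Of 17 activity-regulated genes, 14 had one in replicate 1, 8 in replicate 2 and 6 in both, and the 6 were Fosb, Fosl2, Jun, Egr1, Egr4 and Arc. Bdnf and Npas4, which neuronal activity also induces, had none in either library. Of 14 housekeeping genes, 12 had one in replicate 1, 6 in replicate 2 and 6 in both, among them Actb, Gapdh and Tbp. As shares, 35.3% of the activity-regulated and 42.9% of the housekeeping genes had one in both libraries.

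In the neuronal lists a long footprint in both libraries was found for 14.3% of the glutamatergic genes (2 of 14). It was found for 8.33% of the pan-neuronal (1 of 12) and 11.1% of the REST target genes (2 of 18). Each share was under the 24.3% of all promoters. In replicate 1 alone each list stood at 50%, against 54.4% of all promoters. In replicate 2 alone the shares were 28.6%, 16.7% and 16.7%, against 34.3%. Of 14 forebrain glutamatergic genes 7 had a long footprint in replicate 1 and 4 in replicate 2, and Grin2b was among those with one that was long in both. Of 12 pan-neuronal genes with promoter peaks 6 had one in replicate 1 and 2 in replicate 2, and Uchl1, a neuronal deubiquitinase, had one in both. Of 18 genes listed as REST targets 9 had one in replicate 1 and 3 in replicate 2, and Chga and Unc13a, a vesicle-granule protein and a synaptic priming factor, had one in both. The Arc footprint measured 33 bp in replicate 1 and 26 bp in replicate 2, where its middle lay in no listed peak, and the Jun footprint 24 and 22 bp. At Grin2b it measured 22 and 25 bp. The lists hold few genes each and share some, such as Snap25 in the pan-neuronal and REST target lists, and no list was tested.

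Some named long footprints lay in sequence that is not unique. Among the 10 longest that were long in both libraries, intervals of 59 bp near Gm10722 and 53 bp near Gm11168 on chr9 had their central 31 bp present 47 and 29 times in the genome. The strongest peak with a CTCF footprint, on chr8, had 4 copies. Reads from such copies cannot be placed to 1 of them with certainty, and these intervals are reported as uncertain.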

How the data were processed

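DNase-seq had been done on mouse hippocampus in 2 libraries. Peaks, footprints and base FDR values were deposited per library on mm10, per the labels and file descriptions. The aligner and the programs that called peaks and footprints, with versions, were not given in the sources used here, nor was the handling of CAST/EiJ reads. The peak value is a signal that the authors scaled to each library, on a scale not stated. The deposited base lists hold FDR values (q-values) under 0.05, and the deposited footprint lists carry 0.01 on every line. Read depth is unknown, so only counts of regions are given an interval.

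A footprint's middle set its location (GENCODE M21, coding transcripts) and its 41 bp window on the RefSeq GRCm38.p6 sequence. Consensuses were matched as letters on either strand, in the window, inside the interval, and in windows moved by 100 bp. Recurrence used an overlap of 1 bp, a reciprocal overlap of 50% or middles within 5 bp. Shares carry 95% Wilson intervals and differences 95% Newcombe intervals. No p-value was computed, since 2 libraries form 1 group and regions are not replicates. Procedures were tested on simulated data.

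Named regions were the 10 longest recurrent long footprints, the one in the strongest peak for each consensus, and up to 3 per gene list nearest a TSS; further CTCF, NRF1, SP, CRE and NFI regions in the next strongest peaks were added after their values were seen. Certain regions taken by these rules are not reported here. Chromosomes whose sequence is not reported were left out of the printed sequences. Members, consensuses and gene lists were chosen with earlier results of these data known. Alternatives were 25 bp or more, 13 to 19 bp as the comparison, the shorter peak lists, other overlaps, promoter windows of 500 and 2500 bp, other motif windows, and each replicate left out. Python 3.11.15, NumPy 2.4.6, pandas 2.3.3 and numba 0.67.0 were used.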

Additional observations from a re-analysis of the deposited data

How the results depend on the processing

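No paired analysis was possible because the 2 libraries form 1 group and nothing is compared between groups. Values are means over the 2 libraries of long minus short. The promoter difference of 9.43 percentage points was 0.810 against 13 to 19 bp and 4.12 in the shorter peak list, in both with opposite signs in the 2 libraries. It was -17.8 in peaks with a value of 2 to 4 and 24.0 without CTCF, both alternatives chosen after seeing the data. The recurrence difference of 58.9 was 63.9 for 25 bp or more, 27.3 against 13 to 19 bp, 53.5 in the shorter list, 54.6 by reciprocal overlap, 48.3 by middles, 54.5 in shared peaks and 50.3 in peaks with a value of 2 to 4 (added later). The GC difference of 5.21 was 1.94 against 13 to 19 bp and 0.759 in peaks with a value of 2 to 4 (added later). The soft-masked difference of -0.992 was -0.497 in the shorter list, and that of the other library's peak value, 1.01, was 0.478 against 13 to 19 bp. The CTCF difference of 12.5 was 15.6 for 25 bp or more, 9.58 against 13 to 19 bp, 10.3 in 21 bp windows, 20.9 outside promoters and 27.7 with 1 letter off (added later). The REST difference of -0.00931 was -0.00200 in 21 bp windows and 0 inside intervals. The mean number of long footprints, 18121.5, was 9488 for 25 bp or more. With 1 library left out, the ranges were 6.06 to 12.8 for promoters, 56.1 to 61.7 for recurrence, 4.09 to 6.32 for GC, -1.09 to -0.895 for soft-masked middles, 0.764 to 1.26 for the peak value, 11.5 to 13.4 for CTCF, -0.0132 to -0.00542 for REST and 10623 to 25620 for the number. Leaving out 1 of 2 libraries moves a mean by a fixed part of the SD and says nothing of stability. Of the 41 other alternatives for these differences, 19 moved by less than 1 SD, 21 by more, and 1 reversed. The cause of the shifts was not tested.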
